A study of Homo sapiens with 6 samples.

Results

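The genes described are the simple keratins KRT7, KRT8, KRT18 and KRT19, vimentin (VIM) and the claudins CLDN1 and CLDN11. They were found by symbol in the deposited table, and all 7 were present among its 57232 genes. The table holds RNA-seq values in FPKM, which divide the fragments of a gene by its length and by the total of its library, for IMR90, a human fetal lung fibroblast line, infected with ARID1B cDNA (3 libraries) or with an empty vector (3 libraries). ARID1B is a DNA-binding subunit of the SWI/SNF chromatin remodeling complex, and the study asked what its ectopic expression does to normal fibroblasts. Cells of both groups were at passage 13, went through puromycin selection up to day 4 and were collected 6 days after infection. The infected cells of a culture are a selected pool, and the values do not separate RNA of the introduced cDNA from that of the endogenous gene.

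Keratins and vimentin build the intermediate filaments of the cytoplasm. Keratins are obligate heteropolymers of a type II chain, such as KRT7 or KRT8, with a type I chain, such as KRT18 or KRT19, and these simple keratins are the keratins of single-layered epithelia. Vimentin, a type III protein that polymerizes with itself, is the main filament protein of fibroblasts. Claudins are membrane-spanning proteins that seal tight junctions between epithelial cells. CLDN1 is best known from skin and other epithelia, and CLDN11 from the myelin of oligodendrocytes and from Sertoli cells of the testis.

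Of the 7 genes, the claudin CLDN1 had the highest ratio of ARID1B to vector cells, 2.17-fold in the ratio of mean FPKM, and KRT18 followed at 1.75-fold. VIM stood at 0.735 of the vector mean. KRT19 stood at 0.590 of it, and at 0.923 without vector replicate 2. KRT19, KRT8, KRT7 and CLDN11 differed by less than the spread between their libraries. None of the 6 members tested passed the threshold of an adjusted p of 0.05 with all 6 libraries, while CLDN1 passed it without vector replicate 2.

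Promoter sequences are shown for the 2 claudins and for VIM, the most abundant member. Each stretch is the 250 bases before a start site in the RefSeq promoter table (GRCh38.p14), in which 4 of the 7 members matched. KRT8 was matched too, and KRT7, KRT18 and KRT19 were not matched. Capitals mark the GC box GGGCGG, the CCAAT box CCAAT and the A/T-rich TTTAAA, searched on both strands together with TATAAA, the AP-1 site TGAGTCA and CACCTG, the form of E-box that SNAI and ZEB factors bind. No marked matches overlap each other.
CLDN1, chr3:190322447-190322696, minus strand: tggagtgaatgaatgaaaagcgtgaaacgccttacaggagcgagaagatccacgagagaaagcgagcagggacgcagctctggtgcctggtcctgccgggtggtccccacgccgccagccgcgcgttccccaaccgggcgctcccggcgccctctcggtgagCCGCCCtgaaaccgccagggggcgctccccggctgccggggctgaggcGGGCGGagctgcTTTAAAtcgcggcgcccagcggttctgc
CLDN11, chr3:170418618-170418867, plus strand: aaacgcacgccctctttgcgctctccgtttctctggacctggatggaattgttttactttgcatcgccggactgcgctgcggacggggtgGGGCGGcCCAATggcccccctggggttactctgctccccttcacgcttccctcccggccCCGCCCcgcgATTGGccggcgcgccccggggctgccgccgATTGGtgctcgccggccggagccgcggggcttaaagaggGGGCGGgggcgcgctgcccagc
VIM, chr10:17227991-17228240, plus strand: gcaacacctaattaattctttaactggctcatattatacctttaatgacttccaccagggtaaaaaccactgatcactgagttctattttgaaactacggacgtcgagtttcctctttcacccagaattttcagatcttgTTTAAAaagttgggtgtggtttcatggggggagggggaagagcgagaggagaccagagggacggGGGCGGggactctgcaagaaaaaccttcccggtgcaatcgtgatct
The CLDN1 stretch held 2 GC boxes and 1 TTTAAA near its 3′ end, with a GC content of 68.8%. The stretch at the first of 2 listed CLDN11 starts held 3 GC boxes and 3 CCAAT boxes at a GC content of 71.2%. The VIM stretch held 1 GC box and 1 TTTAAA at 46.0% GC. Over the 35116 promoter stretches of this length, 42.6% held GGGCGG, 32.0% CCAAT and 11.3% TTTAAA, and the median GC content was 58.0%. The letters CACCTG (17.5% of stretches), TGAGTCA (4.2%) and TATAAA (10.7%) occurred in none of the 3 windows. The libraries do not show which start site was used.

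The libraries held between 63386813 and 91924514 reads or fragments, totals worked out from the smallest FPKM steps. ARID1B itself (ENSG00000049618) stood at 27.3 ± 5.79 FPKM in ARID1B cells and 1.88 ± 0.509 FPKM in vector cells (SD, n = 3 each), a log2 change of 3.29 (adjusted p = 0.0255, limma). With single libraries left out its adjusted p ran from 0.0131 (without vector replicate 2) to 0.323 (without ARID1B replicate 3), and the ARID1B and vector values never overlapped. Vector replicate 2 lay apart from the rest, with a score of -48.5 on principal component 1 (63.8% of the variance), against scores from -3.63 to 20 in the other 5 libraries. Replicate 3 lay between replicates 1 and 2 for 69.2% of the genes tested in ARID1B cells and for 85.0% in vector cells. Among the 7 members this held for 6 in ARID1B cells and for 7 in vector cells. Whether the libraries numbered 3 are independent of the others was not tested, and the p-values here treat them as independent. Of the cell type markers, all 13 of lung fibroblasts had a mean of at least 1 FPKM. Of 11 lung epithelial markers none did. The highest was MUC1, at 0.762 FPKM in ARID1B cells and 0.796 FPKM in vector cells, and NKX2-1, SFTPA1, SFTPC and SCGB1A1 were listed at 0 in all libraries.

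**Figure D1:**
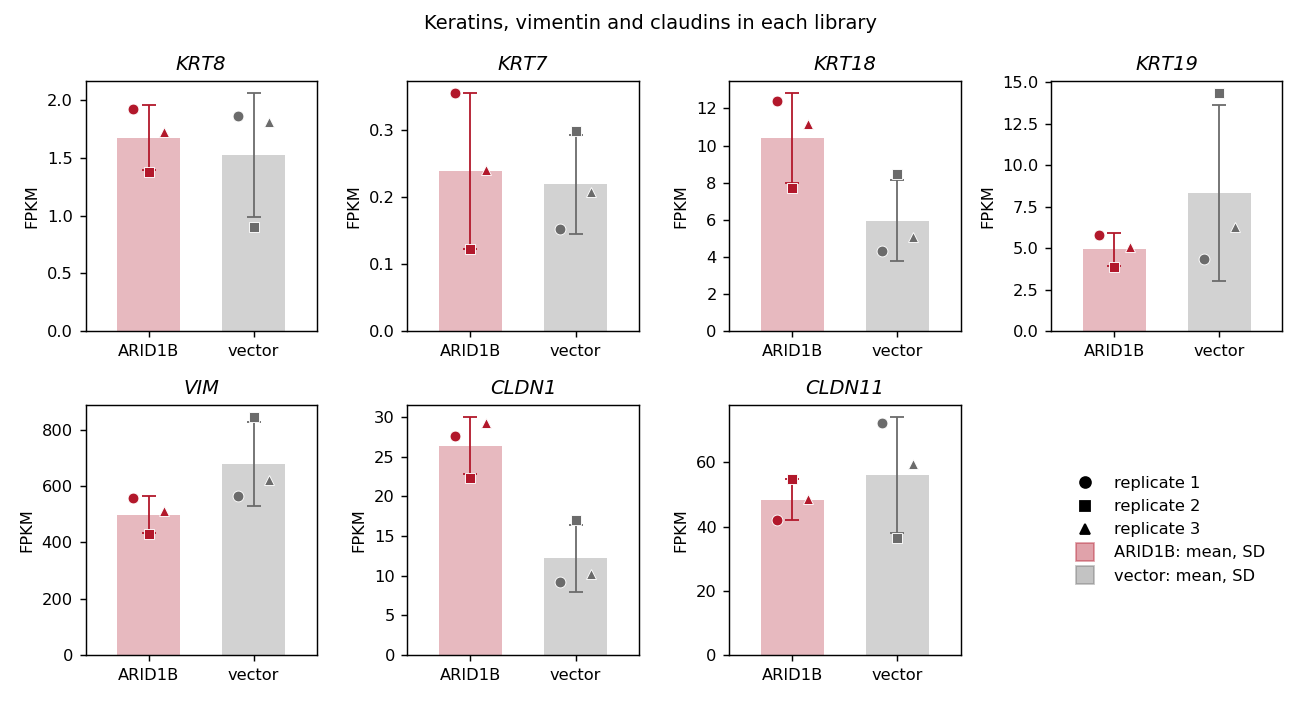
FPKM of each member in the 3 ARID1B libraries (red) and the 3 vector libraries (gray), on linear axes from 0. Group means and SDs (n = 3) are drawn as bars with whiskers, and symbols tell the replicates apart. For CLDN1 all ARID1B points lie above all vector points and for VIM below them, and vector replicate 2 (square) is the highest of the 6 libraries for KRT19 and VIM.

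CLDN1 (ENSG00000163347) was the member with the clearest difference. It stood at 27.6, 22.3 and 29.3 FPKM in ARID1B replicates 1, 2 and 3, against 9.20, 17.1 and 10.3 FPKM in vector replicates 1, 2 and 3. Each ARID1B library was above each vector library, and vector replicate 2 came closest. The means were 26.4 ± 3.64 FPKM in ARID1B cells and 12.2 ± 4.26 FPKM in vector cells (SD, n = 3 each). On log2(FPKM + 1), where changes are understated for genes at low levels, the change was 1.09 (standard error 0.240, adjusted p = 0.300, limma). The unadjusted p was 0.00337, and an exact two-sided permutation test gave 0.1, the smallest that 3 against 3 libraries allow. Groups failed to overlap, in either direction, for 20.5% of all genes tested (9.44% with ARID1B higher and 11.1% with ARID1B lower). Without vector replicate 2 the vector mean of CLDN1 was 9.73 FPKM and its log2 change 1.35 (standard error 0.134, adjusted p = 0.0266, limma). In that fit 1.20% of genes were called higher and 1.91% lower. CLDN1 was the one member called in it. The values of CLDN1 rested on at least 2488 reads per library, a counting error of 2.00%, which is small beside the spread between libraries.

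CLDN11 (ENSG00000013297) was the more abundant claudin, and it differed by less than the spread between its libraries. Its level was 41.9, 54.7 and 48.7 FPKM in ARID1B replicates 1, 2 and 3, against 72.4, 36.6 and 59.5 FPKM in vector replicates 1, 2 and 3. The ARID1B libraries all lay within the range of the vector libraries, of which replicate 2 was the lowest. The log2 change was -0.16 (standard error 0.263, adjusted p = 0.826, limma). Without vector replicate 2 both remaining vector libraries were above all ARID1B libraries. The share of all genes without overlap in that setting was not worked out. The log2 change of CLDN11 was then -0.44 (standard error 0.148, adjusted p = 0.156, limma). With the gene lengths of the deposited values, CLDN11 was at 1.84 times the mean FPKM of CLDN1 in ARID1B cells and 4.62 times in vector cells. Per kilobase of the longest transcript the gap was wider, as given with the levels below.

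KRT18 (ENSG00000111057), the type I partner of KRT8, was measured at 12.4, 7.73 and 11.2 FPKM in ARID1B replicates 1, 2 and 3, against 4.35, 8.46 and 5.06 FPKM in vector replicates 1, 2 and 3. The groups overlapped through a single pair, since vector replicate 2 was above ARID1B replicate 2. The means were 10.4 ± 2.41 FPKM in ARID1B cells and 5.95 ± 2.20 FPKM in vector cells (SD, n = 3 each). The log2 change was 0.74 (standard error 0.264, unadjusted p = 0.0295, adjusted p = 0.419, limma). Without vector replicate 2 it was 0.98 (standard error 0.194, adjusted p = 0.0637, limma). The KRT18 transcript is GC-rich, at 55.7% in its longest annotated form, above 74.7% of the genes tested. Across all genes tested, which are not independent, Spearman's rho between GC content and log2 change was -0.55, and -0.27 without vector replicate 2. After a correction of each library for GC content and length, the log2 change of KRT18 was 0.90 (standard error 0.180, adjusted p = 0.213, limma), and that of CLDN1 was 0.99 (standard error 0.265, adjusted p = 0.357, limma).

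KRT8 (ENSG00000170421), the type II chain that pairs with KRT18, differed by less than the spread between its libraries. KRT8 was at 1.92, 1.37 and 1.72 FPKM in ARID1B replicates 1, 2 and 3, against 1.86, 0.904 and 1.81 FPKM in vector replicates 1, 2 and 3. Vector replicate 2 was the lowest and ARID1B replicate 2 the next lowest, and the groups overlapped. The log2 change was 0.10 (standard error 0.185, adjusted p = 0.842, limma), and it turned to -0.09 (adjusted p = 0.660, limma) without vector replicate 2. KRT8 has many processed pseudogenes, of which the table lists 44. They summed to 1.84 to 2.29 FPKM in ARID1B cells and 2.15 to 3.10 FPKM in vector cells, mostly from KRT8P12. This pseudogene took between 16.3% and 57.6% of the reads of KRT8 in the same library, so the split of reads between them is uncertain. The 39 KRT18 pseudogenes summed to at most 0.229 FPKM in ARID1B cells and 0.198 FPKM in vector cells.

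KRT19 (ENSG00000171345), a small type I keratin that lacks the tail domain of other keratins, was at 5.82, 3.84 and 5.10 FPKM in ARID1B replicates 1, 2 and 3, against 4.35, 14.3 and 6.30 FPKM in vector replicates 1, 2 and 3. Vector replicate 2 stood alone, and the other 5 libraries covered a narrow range. The log2 change was -0.52 (standard error 0.386, adjusted p = 0.672, limma) with all libraries and -0.09 (standard error 0.195, adjusted p = 0.823, limma) without vector replicate 2. The KRT19 transcript, at 61.8% GC, was above 91.5% of the genes tested, and its log2 change after the GC and length correction was -0.23 (adjusted p = 0.848, limma).

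KRT7 (ENSG00000135480), a type II keratin of glandular and ductal epithelia, was the lowest member and was not tested, with a mean of 0.230 FPKM against the minimum of 1 FPKM. It was at 0.355, 0.122 and 0.240 FPKM in ARID1B replicates 1, 2 and 3, against 0.153, 0.299 and 0.208 FPKM in vector replicates 1, 2 and 3. The groups overlapped, with replicate 2 the lowest ARID1B library and the highest vector library. The difference of 0.02 on log2(FPKM + 1) had p = 0.8 in an exact two-sided permutation test. At 62 reads in its shallowest library, the counting error alone was 12.7%.

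VIM (ENSG00000026025) was at 556, 428 and 511 FPKM in ARID1B replicates 1, 2 and 3, against 564, 846 and 622 FPKM in vector replicates 1, 2 and 3. Each ARID1B library was below each vector library, although replicates 1 of both groups lay side by side. The means were 498 ± 65.0 FPKM in ARID1B cells and 677 ± 149 FPKM in vector cells (SD, n = 3 each). The log2 change was -0.43 (standard error 0.199, adjusted p = 0.510, limma). It was -0.26 (adjusted p = 0.338, limma) without vector replicate 2 and -0.44 (adjusted p = 0.486, limma) after the GC and length correction. The antisense gene VIM-AS1 held between 0.0379% and 0.0755% of the reads of VIM in the same library, and whether the counting used strand is not given in the sources used here.

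**Figure D2:**
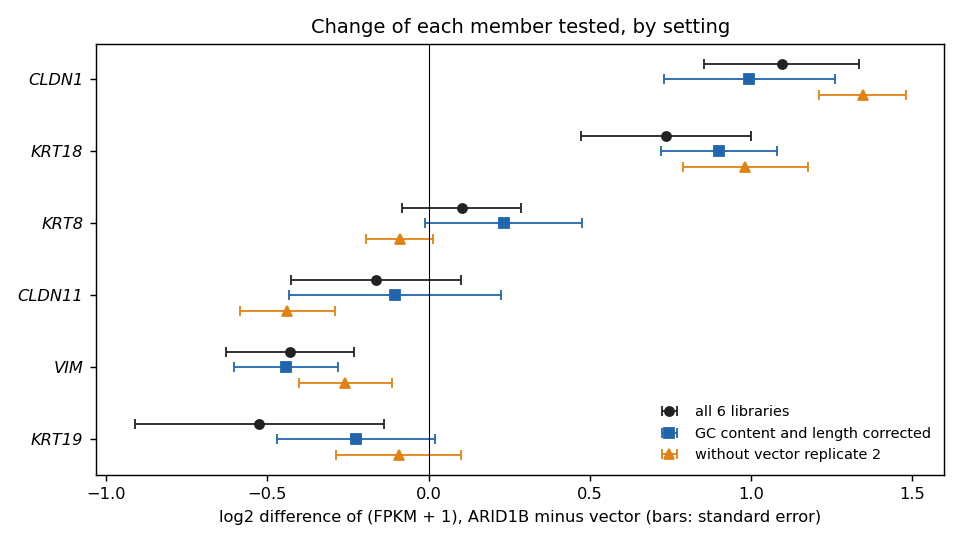
Log2 change of the 6 members tested (points, ARID1B minus vector on log2(FPKM + 1)) with the standard error from limma, with all 6 libraries (black), after correction for GC content and length (blue) and without vector replicate 2 (orange). CLDN1 and KRT18 lie above 0 and VIM below 0 in all 3 settings, KRT8 turns from 0.10 to -0.09 without vector replicate 2, and KRT19 moves from -0.52 to -0.09.

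As a group, the 6 members tested had 0 called higher and 0 called lower by limma, against 0.0288% of all genes called higher (3 of 10416) and 0% called lower. At an unadjusted p under 0.05, 2 members were higher (CLDN1 and KRT18) and 0 lower, against 4.64% of all genes higher and 5.94% lower. On the recovered reads, limma with voom weights called 0 members, against 0.0096% of all genes higher and 0% lower. With the GC and length correction 0 members were called, against 0.0589% of genes higher and 0% lower. With that correction and without vector replicate 2, CLDN1 was called higher (log2 change 1.27, adjusted p = 0.0316, limma) and 0 members lower, against 1.3% of genes higher and 1.56% lower. The groups did not overlap for 1 member with ARID1B higher (CLDN1), against 9.44% of all genes, and for 1 with ARID1B lower (VIM), against 11.1%. The members had 3 positive and 3 negative changes, with a median of -0.03 beside -0.02 over all genes tested.

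Ratios between members were formed within each library, from FPKM + 1, so that the added 1 weighs most in the ratios of KRT7 and KRT8. KRT18 over VIM, as log2 of FPKM + 1, was -5.38, -5.62 and -5.40 in ARID1B replicates 1, 2 and 3, against -6.72, -6.48 and -6.69 in vector replicates 1, 2 and 3. The ratio was higher in each ARID1B library by more than the spread within either group. Its difference was 1.17 (exact two-sided permutation p = 0.1, adjusted p = 0.250 over 5 ratios, the smallest p this design allows before adjustment). KRT19 over KRT18 was -0.97, -0.85 and -0.99 in ARID1B replicates 1, 2 and 3, against 0.0016, 0.70 and 0.27 in vector replicates 1, 2 and 3. In ARID1B cells KRT18 was thus the leading type I keratin of this set in each library, whereas in vector cells KRT19 was level with it or above it. The difference of that ratio was -1.26 (exact two-sided permutation p = 0.1, adjusted p = 0.250). KRT8 over KRT18 differed by -0.64 (exact permutation p = 0.4), KRT7 over KRT8 by -0.08 (exact permutation p = 1.0) and CLDN11 over CLDN1 by -1.26 (exact permutation p = 0.2), and these 3 overlapped between the groups.

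**Figure D3:**
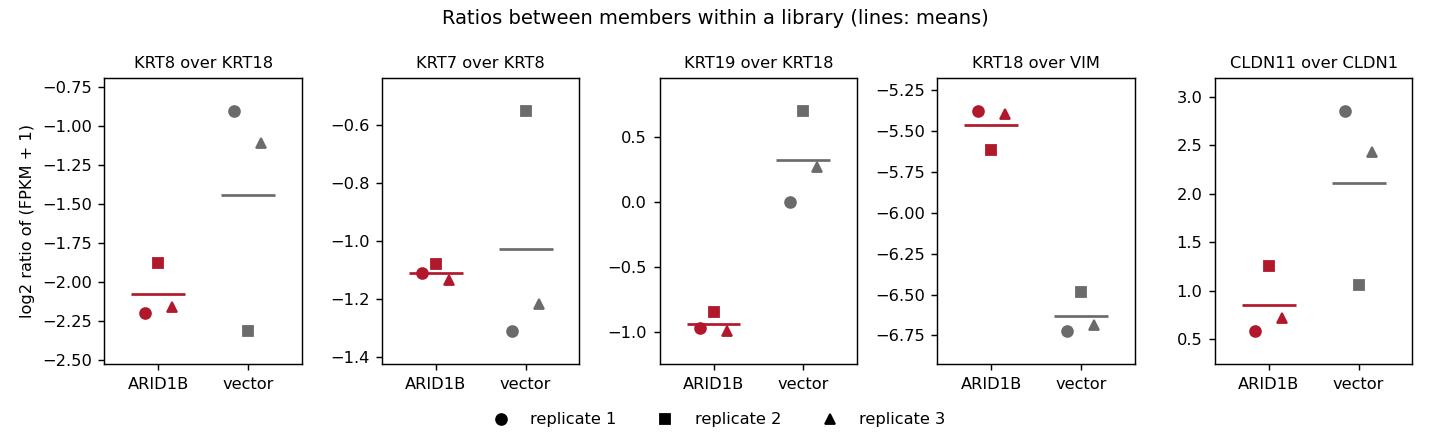
Log2 ratio of (FPKM + 1) between pairs of members in each library, with ARID1B libraries in red, vector libraries in gray, lines at the group means and marker shapes for the replicate number. KRT18 over VIM and KRT19 over KRT18 separate the groups, and vector replicate 2 lies below the ARID1B libraries for KRT8 over KRT18.

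The order of the levels was led by VIM in both groups, followed by CLDN11. By mean FPKM the order in ARID1B cells went on with CLDN1, KRT18 (10.4 FPKM), KRT19 (4.92 FPKM), KRT8 (1.67 FPKM) and KRT7, and no neighbours in it overlapped between their libraries. In vector cells it went on with CLDN1, KRT19 (8.33 FPKM), KRT18 (5.95 FPKM), KRT8 (1.52 FPKM) and KRT7. There CLDN1 overlapped with KRT19, and KRT19 with KRT18. These levels depend on the gene length in the deposited values, which was recovered along with the reads. For KRT18, KRT19 and CLDN1, and for 41.6% of the genes tested that matched, this length equalled the sum of all distinct exons in GENCODE v29, in which bases of overlapping exons count repeatedly. It was 4.43 times the longest transcript for KRT8, 3.81 times for VIM, 4.49 times for CLDN11 and 1.10 times for CLDN1. As reads per kilobase of the longest transcript, scaled to the library total, KRT18 in ARID1B cells stood at 32.9 ± 7.62 and CLDN1 at 29.03 ± 4.01 (SD, n = 3 each), and their libraries overlapped. In vector cells KRT19 (25.7 ± 16.3) and KRT18 (18.8 ± 6.94) were then both above CLDN1 (13.4 ± 4.69; SD, n = 3 each), with overlap between neighbours. On this scale CLDN11 was at 218 ± 28.7 in ARID1B cells and 252 ± 81.5 in vector cells (SD, n = 3 each).

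**Figure D4:**
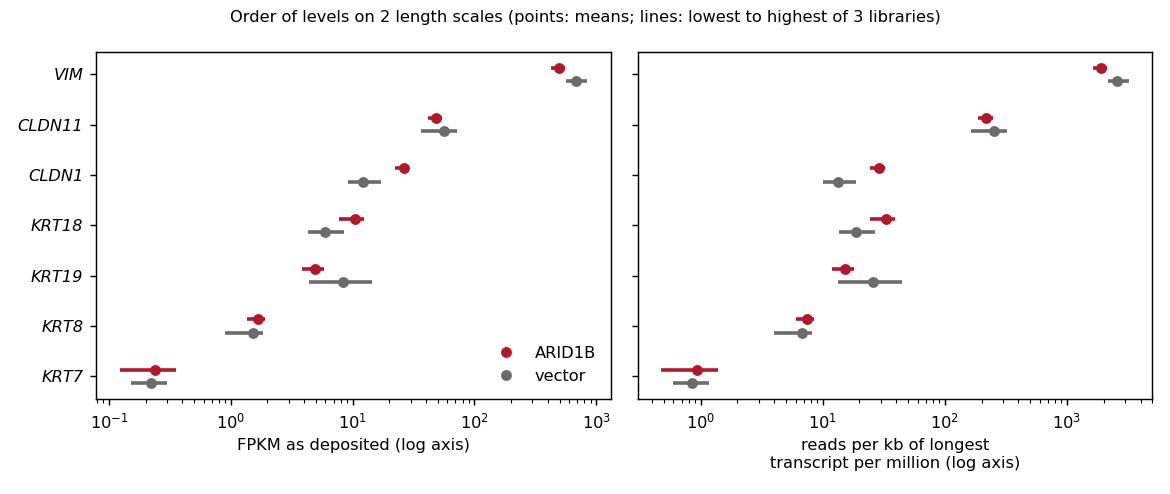
Level of each member in ARID1B cells (red) and vector cells (gray), as deposited FPKM and as reads per kilobase of the longest GENCODE v29 transcript scaled to the library total, on log axes. Points are means and lines run from the lowest to the highest of 3 libraries; VIM and CLDN11 lead on both scales, and CLDN1 drops behind KRT18 on the second.

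Related genes of filaments and junctions were followed in lists. Of 24 other type II keratins none reached a mean of 1 FPKM, the highest being KRT80 at 0.418 FPKM in ARID1B cells and 0.544 FPKM in vector cells. Of 26 other type I keratins, 2 were tested and neither was called. KRT10, a keratin of differentiated epidermis, had a log2 change of -0.16 (adjusted p = 0.773, limma), and of 0.03 without vector replicate 2. KRT34, a hair keratin, spread over 0.770 to 3.21 FPKM in ARID1B cells and 0.582 to 6.11 FPKM in vector cells, with vector replicate 2 the highest. Of 12 other cytoplasmic intermediate filament genes, 4 were tested, with 0 called in either direction. SYNC, which encodes syncoilin of muscle filaments, was at 18.8, 14.9 and 17.9 FPKM in ARID1B replicates 1, 2 and 3, against 9.45, 6.13 and 9.12 FPKM in vector replicates 1, 2 and 3. Its groups did not overlap, as for 9.44% of all genes with ARID1B higher, and its log2 change was 0.99 (adjusted p = 0.264, limma). Without vector replicate 2 SYNC was called, at 0.82 (adjusted p = 0.0382, limma), in a fit that called 1.2% of all genes higher. NES, which encodes nestin, a partner of vimentin, was at 52.8, 45.8 and 51.1 FPKM in ARID1B replicates 1, 2 and 3, against 57.1, 106 and 65.0 FPKM in vector replicates 1, 2 and 3. All ARID1B libraries lay below all vector libraries for NES, as for 11.1% of all genes. The pattern over libraries was that of VIM, with a log2 change of -0.55 (adjusted p = 0.492, limma), and of -0.28 (adjusted p = 0.186, limma) without vector replicate 2.

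Of 18 genes that link filaments or form desmosome plaques, 8 were tested and 0 were called. PKP4, an armadillo protein of cell contacts, had a log2 change of 0.46 (adjusted p = 0.307, limma). MACF1, a linker of actin and microtubules, had one of 0.44 (adjusted p = 0.480, limma). They were among 3 of the 8 with ARID1B higher and no overlap between groups, against 9.44% of all genes. PLEC, which encodes the cytolinker plectin and was the highest of this list, was at -0.01 (adjusted p = 0.974, limma). Without vector replicate 2 the change of PKP4 stayed at 0.46 (adjusted p = 0.0945, limma). That of MACF1 was then 0.24 (adjusted p = 0.187, limma) and that of PLEC -0.09 (adjusted p = 0.716, limma). The median of the list was 0.31, and 0.15 without vector replicate 2. Of 21 other claudins only CLDN12 was tested, at a log2 change of 0.20 (adjusted p = 0.569, limma). Of 21 listed tight junction partners in the table, 10 were tested, with 0 called, 5 positive and 5 negative changes and a median of -0.01. TJP1, which encodes the scaffold ZO-1, had a log2 change of 0.38 (adjusted p = 0.620, limma) and JAM2, a junctional adhesion molecule, one of -0.27 (adjusted p = 0.732, limma). Without vector replicate 2 TJP1 was at 0.11 (adjusted p = 0.491, limma) and JAM2 at -0.56 (adjusted p = 0.0818, limma). The groups of JAM2 then did not overlap, but the share of all genes without overlap in that setting was not worked out. At an unadjusted p under 0.05, 1 of the 4 other filament genes and 1 of the 8 linkers tested were higher, against 4.64% of all genes, and voom called none in these lists.

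Genes of epithelial identity were almost silent. None of 16 reached a mean of 1 FPKM, and the highest was EPCAM, an epithelial adhesion molecule, at 0.187 FPKM in ARID1B cells and 0.205 FPKM in vector cells. Of 12 regulators of the mesenchymal state, 10 were tested and 0 were called, while 2 were lower at an unadjusted p under 0.05 (5.94% of all genes) and voom called none. These were TWIST2, a basic helix-loop-helix factor, at -0.64 (adjusted p = 0.390, limma), and PRRX1, a homeobox factor of mesenchyme, at -0.41 (adjusted p = 0.360, limma). For both, all ARID1B libraries lay below all vector libraries, as for 11.1% of all genes. SNAI2, a repressor of epithelial genes and the highest of this list, was at 15.8, 40.0 and 21.5 FPKM in ARID1B replicates 1, 2 and 3, against 29.2, 13.01 and 24.2 FPKM in vector replicates 1, 2 and 3. Its groups overlapped widely, at a log2 change of 0.18 (adjusted p = 0.878, limma), which turned to -0.15 without vector replicate 2.

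Markers of mesothelium, a simple epithelium that also carries keratins, were checked for another source of keratin RNA. The 9 markers summed to 2.32 to 2.4995 FPKM in ARID1B cells and 1.11 to 1.84 FPKM in vector cells. Most of the difference came from BNC1, a zinc finger factor, at 1.25 to 1.72 FPKM in ARID1B cells and 0.222 to 0.464 FPKM in vector cells. CALB2, the calcium-binding protein calretinin, went the other way, at 0.276 to 0.537 FPKM in ARID1B cells and 0.712 to 1.04 FPKM in vector cells. PDPN was at 0.0934 to 0.945 FPKM in ARID1B cells and 0.0324 to 0.286 FPKM in vector cells, and LRRN4 averaged 0.0575 FPKM over all libraries. The other 5 markers, MSLN, UPK3B, WT1, GPM6A and ITLN1, averaged under 0.05 FPKM, WT1 and ITLN1 being listed at 0. Smooth muscle markers summed to 138 to 147 FPKM in ARID1B cells and 92.1 to 137 FPKM in vector cells. Most of each sum was ACTG2, at 104 to 111 FPKM in ARID1B cells and 62.4 to 99.9 FPKM in vector cells. Its log2 change was 0.52 (adjusted p = 0.429, limma), and 0.73 (adjusted p = 0.0297, limma) without vector replicate 2. The means of LMOD1 (17.5 against 14.0 FPKM in vector cells) and CNN1 (9.63 against 8.67 FPKM) were higher in ARID1B cells too, with overlap. Those of DES and SMTN were lower, also with overlap. Without vector replicate 2 the log2 change of SMTN turned from -0.14 to 0.40. MYH11 averaged 0.0149 FPKM over all libraries. The 13 lung fibroblast markers summed to 1445 to 2367 FPKM in ARID1B cells and to 1176 to 2230 FPKM in vector cells, and 0 were called. The sums hide differences between markers. LUM averaged 68.5 FPKM in ARID1B cells and 26.5 FPKM in vector cells, without overlap (9.44% of all genes). FBLN1 (19.7 against 30.5 FPKM in vector cells) and PDGFRA (18.1 against 25.1 FPKM) went the other way, with overlap. Single markers averaged from 4.69 FPKM (TCF21) to 735 FPKM (COL1A1) over all libraries. Lung epithelial markers summed to 1.15 to 1.27 FPKM in ARID1B cells and 1.34 to 1.51 FPKM in vector cells, endothelial ones to 1.90 to 3.66 FPKM in ARID1B cells and 0.988 to 3.76 FPKM in vector cells, and blood markers to at most 0.177 FPKM in ARID1B cells and 0.0920 FPKM in vector cells. The part of these markers in the values of CLDN1 and KRT18 was not tested. In bulk RNA, a change in the number of expressing cells cannot be told apart from a change in the RNA of each cell.

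The genes most like each member over the 6 libraries are given as a description, because the libraries share 2 groups and the distance of vector replicate 2. For CLDN1 they were ZNF804A (Pearson r = 0.9987) and PSTPIP2 (0.9976). For KRT18 they were HIST1H1C (0.9995), a linker histone, and PSG5 (0.9986), a pregnancy-specific glycoprotein. KRT8 ran with IGF2BP2 (0.9994) and RP11-400K9.4 (0.9966), and KRT19 with PSMA7 (0.9987), a proteasome subunit, and ITPA (0.9985). VIM ran with MRPL23 (0.9991) and C1orf134 (0.9990), and CLDN11 with KLF11 (0.9951) and FAM175A (0.9935). These genes were chosen by this correlation, so a difference between the groups that they share with a member follows from the choice. ZNF804A was at 4.85, 3.94 and 4.94 FPKM in ARID1B replicates 1, 2 and 3, against 2.09, 3.39 and 2.26 FPKM in vector replicates 1, 2 and 3. Like CLDN1 it was higher in each ARID1B library, with vector replicate 2 the closest.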

How the data were processed

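Per the file headers the deposited values are FPKM for each library, made by the authors. The build hg19 and the tools TopHat2 2.0.11, HTSeq 0.5.3p9 and DESeq2 stand in the submitters' processing notes, and the annotation and the role of each tool are not given in the sources used here. The kit was stranded, and whether counting used strand is not given either.

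Libraries were grouped by their titles. The 10416 genes averaging 1 FPKM or more were compared on log2(FPKM + 1) with limma 3.58.1 and a variance trend (R 4.3.3), Benjamini-Hochberg adjustment and a threshold of 0.05. The study calls the replicates biological, and the labels do not say whether they came from separate cultures, so p-values measure the spread between these libraries. Replicate numbers did not pair the libraries (correlations of deviations -0.461, -0.431 and -0.171). Library totals and reads were recovered from the FPKM steps of single-transcript genes in GENCODE v29. All 10416 genes tested gave whole reads within 0.002, or within a wider tolerance in proportion to the reads for the genes with the most reads. The reads of a gene are too small by any divisor they share. Counting errors are 1 over the square root of the reads and cover counting only. GC content and length came from the longest v29 transcript (97.9% of genes matched), fitted per library with natural splines of 5 degrees of freedom each. Both scripts were tested on simulated data. Python 3.11.15 and matplotlib 3.10.9 were used for tables and plots.

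Members, lists and tests were chosen with earlier results of these data known. Named genes were the members, ARID1B, up to 4 called genes or else the 2 smallest p of each list with its highest gene, marker genes, pseudogenes and antisense genes of members, and the 2 genes most like each member. A gene that this rule names is not reported here. ZNF804A was singled out among those most like a member for its values. Alternatives were another pseudocount, other filters, median-ratio and quantile scaling, no trend, voom, a replicate block, the GC and length correction and each library left out. Leaving out both libraries numbered 3, the correction without vector replicate 2 and the longest transcript as gene length were added after seeing the data. PATJ is listed as INADL, and PECAM1 was not analysed here.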

Additional observations from a re-analysis of the deposited data

How the results depend on the processing

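For CLDN1, KRT18 and VIM the direction held in all 18 alternatives, with log2 changes from 0.93 to 1.35, 0.57 to 1.02 and -0.55 to -0.21. Adjusted p ran from 0.0266 to 0.999 for CLDN1, from 0.0501 to 0.999 for KRT18 and from 0.216 to 0.999 for VIM. For each of these genes the 0.999 came from the limma fit without both libraries numbered 3. CLDN1 passed only without vector replicate 2, at 1.35 (adjusted p = 0.0266, limma), and with that library left out and the GC and length correction applied, at 1.27 (adjusted p = 0.0316, limma), so 1 member was then called higher against 0. In these fits KRT8 reversed to -0.089 and -0.048, and KRT19 reversed to 0.035 in the second. CLDN11 reversed to 0.044 without vector replicate 1. Leaving out single libraries gave ranges of 0.93 to 1.35 for CLDN1, 0.57 to 0.98 for KRT18, -0.089 to 0.20 for KRT8, -0.85 to -0.09 for KRT19, -0.55 to -0.26 for VIM, -0.44 to 0.044 for CLDN11 and -0.05 to 0.09 for KRT7. For ARID1B the range was 3.14 to 3.46, and its call held only without vector replicate 2. The call of ARID1B was also lost with no filter on low values (3.29, adjusted p = 0.135), without both libraries numbered 3 (3.30, adjusted p = 0.838), with the replicate block (3.29, adjusted p = 0.105) and with the block and the correction (3.24, adjusted p = 0.0877). The replicate block left the log2 changes as they were and called 0 members, with CLDN1 at 1.09 (adjusted p = 0.811) and KRT18 at 0.74 (adjusted p = 0.811). CLDN12, the one other claudin tested, moved to 0.0722 with the GC and length correction, with or without the block. With no filter on low values, the median of the other claudins was -0.00369 and that of the linkers 0.041. Among other filament genes 1 (SYNC) was called higher without vector replicate 2, with or without the correction, and their median was -0.0496 with both. The median of mesenchymal regulators was 0.08 with all libraries and -0.25 without vector replicate 2. With the correction added it was -0.254 and 1 of them (PRRX1) was called lower. Single libraries left out gave -0.25 to 0.163. The causes were not tested. KRT7 has no value where the filter at 1 FPKM or above is applied in a fit, and KRT8 and CLDN12 none at 5 FPKM. With 3 libraries a group, the spread between libraries was larger than the counting error for all 7 members.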
